A study of Mus musculus with 26 samples.

Results

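Cyclic nucleotide phosphodiesterases were measured in Drd2-expressing neurons of mouse dorsal striatum, in 10 genes chosen by name: Pde10a, Pde1a, Pde1b, Pde1c, Pde2a, Pde4b, Pde4d, Pde7a, Pde7b and Pde8b. They are 10 of the 31974 genes that could be joined across the count tables. No measured value entered that choice, but it was made with earlier results of these data known. All 10 passed the filter on low counts in both fits used below.

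Phosphodiesterases break the second messengers cAMP and cGMP down to inactive nucleotides and so end the signals that cyclases start. In striatal projection neurons dopamine and adenosine receptors set the rate of cAMP synthesis, and the phosphodiesterases present set how long and where in the cell cAMP lasts. PDE1 enzymes (Pde1a, Pde1b, Pde1c) are switched on by calcium and calmodulin and hydrolyse both messengers, PDE2 (Pde2a) hydrolyses both and is stimulated by cGMP, and PDE10 (Pde10a) hydrolyses both and is known for its abundance in striatal projection neurons. PDE4, PDE7 and PDE8 enzymes (Pde4b, Pde4d, Pde7a, Pde7b, Pde8b) are specific for cAMP.

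Ribosome-bound RNA was purified from dorsal striatum by TRAP, translating ribosome affinity purification. Every library came from the Drd2-TRAP line CP101, on FVB/N-Swiss Webster stock crossed to C57BL/6 for at least 9 generations, in which the Drd2 gene's regulatory sequences drive an EGFP tag on ribosomal protein Rpl10a that an antibody captures. Mice self-administered saline or cocaine, and the titles split cocaine mice into an escalating and a nonescalating group. The 23 immunopurified libraries are 3 saline, 4 nonescalating, 2 escalating, 5 saline withdrawal and 9 nonescalating withdrawal, and there are 3 inputs of unpurified RNA, 1 each for saline, nonescalating and saline withdrawal. There is no escalating withdrawal group, and the sources used here give no dose, age, sex or length of withdrawal. Nothing states that libraries of a group came from separate mice or how many mice a library pools, so p-values measure only the spread between libraries.

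The libraries held 3279457 to 19122303 counts in genes. Library numbers in the titles form 2 sets: set A has all libraries without withdrawal and 6 withdrawal libraries, and set B the other 8 withdrawal libraries and the saline withdrawal input. Saline withdrawal set A replicate 2, number 1797, was placed in set A by inference. Its number falls among the lower numbers of which the other set A titles are marked as copies. The share of uniquely aligned reads assigned to no gene, called reads outside genes below, ran from 21.2% to 70.7% in immunopurified libraries and from 27.3% to 31.6% in inputs. Saline withdrawal set A replicate 1 had the highest share. Drd2, the gene whose regulatory sequences drive the tag, was at 804 to 8851 CPM (counts scaled to a common depth, on TMM-adjusted library sizes) after purification against 411 to 550 in inputs. Drd1, which marks the other class of projection neuron, was at 14.02 to 63.03 against 243 to 320.

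Of all phosphodiesterases Pde10a had the highest level. Levels are compared between genes per length, as CPM per kilobase of annotated exon, over the 23 immunopurified libraries. Pde10a averaged 334 ± 134 (SD, n = 23) on this scale, 2.44 times Pde1b, the gene ranked next, and was above it in 23 of 23 libraries. Pde1b at 137 ± 55.1 and Pde2a at 127 ± 39.4 did not separate, with Pde1b higher in 16 of 23 libraries. Pde2a was above the gene ranked after it, Pde7b, in 23 of 23 libraries.

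Pde7b averaged 44.6 ± 14.1 CPM per kilobase, Pde4b 43.5 ± 15.4 and Pde8b 36.5 ± 4.80. Neighbours among these cAMP-specific enzymes overlapped, with Pde7b above Pde4b in 14 of 23 libraries and Pde4b above Pde8b in 15. Pde8b was above Pde4a, the first gene outside the 10, in 23 of 23. A wide gap followed: Pde1a averaged 7.01 ± 2.99, Pde4d 6.31 ± 2.15, Pde1c 2.71 ± 1.40 and Pde7a 2.28 ± 1.09. The first 6 ranks were the same in the inputs, whereas Pde1a ranked 7 there and 9 after purification. Per-kilobase levels use every annotated exon, so a gene with a long exon that these cells do not use reads too low.

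**Figure D1:**
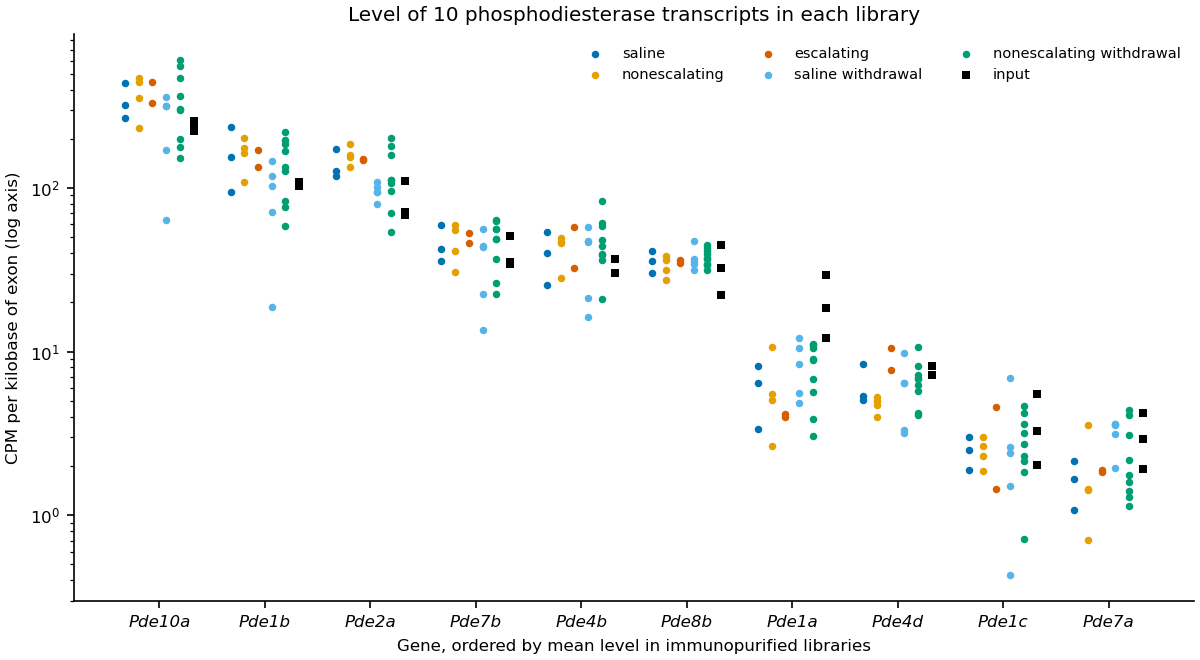
Level of each of the 10 transcripts in CPM per kilobase of exon (log axis) in every library, with 1 circle per immunopurified library in the colour of its group and black squares for the 3 inputs. Pde10a has the highest mean, and the Pde1a circles all lie below its lowest square.

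The genes lie on 9 chromosomes, by GENCODE's annotation of GRCm38, the assembly also called mm10. Pde10a is at chr17:8525372-8986648 on the plus strand, Pde1b at chr15:103503034-103530052 (plus), Pde2a at chr7:101421691-101512827 (plus), and Pde7b at chr10:20398004-20725078 (minus). Pde4b is at chr4:102087543-102607259 (plus), Pde1a at chr2:79834453-80129458 (minus), Pde1c at chr6:56069804-56569103 (minus) and Pde7a at chr3:19223108-19311322 (minus). Pde4d, at chr13:108449948-109953461 (plus), and Pde8b, at chr13:95024454-95250336 (minus), share a chromosome. In that annotation 64.3% of the exon bases of Pde2a also belong to Gm45837, a protein-coding entry on the same strand, so its counts depend on how reads shared by overlapping entries were treated. Antisense entries overlap 7.60% of the exon bases of Pde8b and 0.620% of those of Pde7a, and without a stated strand setting reads of the partners cannot be told apart.

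Purified RNA was compared with unpurified input to ask which phosphodiesterase transcripts are enriched or depleted on the ribosomes of Drd2 neurons. Pde1a was lower and Pde2a higher in purified RNA, and the other 8 genes passed the test in neither direction. Saline, nonescalating and saline withdrawal entered this comparison, with 12 purified and 3 input libraries (edgeR's quasi-likelihood test, Benjamini-Hochberg adjustment over 15603 genes, threshold 0.05). The members called, 1 higher and 1 lower of 10, stand against a background of 7.38% of all genes, 3.58% higher and 3.8% lower. At an unadjusted p under 0.05 the same 2 of 10 passed, against 26.3% of all genes. Their median log2 fold change was 0.15, with 6 of 10 above 0, and that of all genes tested was 0.16. In bulk libraries like these, fewer cells of a type and less RNA per cell cannot be told apart.

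Pde1a, a calcium-activated enzyme, was at 177 CPM in the saline input, 111 in the nonescalating input and 73.2 in the saline withdrawal input. After purification the saline libraries held 38.8, 20.3 and 49.0 CPM, and the nonescalating libraries 15.9, 33.1, 64.1 and 30.5. The saline withdrawal libraries held 33.6 and 29.3 in set A and 63.5, 50.5 and 72.7 in set B. All 12 were below all 3 inputs, but the highest of them missed the lowest input by less than 1 CPM.

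The log2 fold change of Pde1a was -1.52 ± 0.38 (SE), a level 0.350 of input, with adjusted p = 0.0247 by edgeR and a 95% interval of -2.32 to -0.72. By condition the log2 ratio of the mean to the input was -2.30 in saline, -1.62 in nonescalating and -0.55 in saline withdrawal. The call was lost without the saline input (-1.04, edgeR adjusted p = 0.179) and without the nonescalating input (-1.45, edgeR adjusted p = 0.142). Markers of cortical glutamatergic neurons also had folds below 0, and 6 markers summed to 4.76 to 65.2 CPM in the purified libraries. Their sums were 248, 397 and 39.5 in the saline, nonescalating and saline withdrawal inputs, the last inside the purified range. They did not rank as Pde1a did, which was highest in the saline input. None of the 6 was at 0 in every purified library, and 1 was called lower. Markers of other cells were called lower too. Oligodendrocyte markers were lower in 8 of 10, at a summed 103 to 357 CPM against 1621 to 2320 in inputs, and astrocyte markers in 6 of 9, at 168 to 393 against 2034 to 3230. Direct-pathway neuron markers were lower in 6 of 8, at 65.4 to 137 against 562 to 664, and GABAergic interneuron markers in 5 of 7 tested, at 29.7 to 143 against 329 to 641. No marker of these 4 lists was at 0 in every purified library. The part of the 5 lists in the Pde1a result was not tested.

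Pde2a, the cGMP-stimulated enzyme, was at 439 CPM in the saline input, 680.1 in the nonescalating input and 419 in the saline withdrawal input. The saline libraries held 725, 1067 and 786 CPM, the nonescalating libraries 949.8, 1149, 828 and 984, and the saline withdrawal libraries 488, 623, 581, 665 and 580.0. Every library was above the input of its own condition, while 5 of the 12 lay below the nonescalating input. These 5 were the saline withdrawal libraries.

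The log2 fold change of Pde2a was 0.67 ± 0.19 (SE), or 1.59-fold, with adjusted p = 0.0418 by edgeR and a 95% interval of 0.27 to 1.06. The call sat at the threshold: over 25 settings the fold ran from 0.54 to 0.75, and 12 of the 25 passed. Among them, leaving out any of the 3 inputs gave edgeR adjusted p = 0.0935 to 0.175, and using all 23 purified libraries gave 0.59 with adjusted p = 0.110. Endothelial and mural cell markers were also higher after purification, 4 of 12 by the same test, at a summed 240 to 7793 CPM against 132 to 432 in inputs, with none at 0 in every purified library. Markers of indirect-pathway neurons, the class of projection neuron that expresses Drd2, were above 0 in 8 of 8 and called higher in 6. Their median log2 fold change was 1.79, at a summed 2181 to 16135 CPM against 2319 to 2463. None of these was at 0 either, and the part of both lists in the Pde2a result was not tested. Reads that HTSeq left uncounted as ambiguous between genes also differed. They were 0.942% to 2.85% of uniquely aligned reads in purified libraries and 8.61% to 12.8% in inputs. The exons of Pde2a overlap another entry, and the part of such reads in its result was not tested.

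Pde10a was at 3175, 2875 and 3288 CPM in the saline, nonescalating and saline withdrawal inputs. It was at 3462, 5649.6 and 4104 in the saline libraries, and at 5673, 6059, 2983 and 4566 in the nonescalating ones. Saline withdrawal libraries held 817 and 2204 in set A and 4064, 4616 and 4063 in set B. Of these 12 libraries 9 were above every input and the 2 of saline withdrawal set A below every input. The log2 fold change was 0.53 ± 0.28 (SE), with edgeR adjusted p = 0.251.

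The log2 fold change of Pde1b, the PDE1 enzyme with the highest level here, was 0.49 ± 0.34 (edgeR adjusted p = 0.376). With the share of reads outside genes as a covariate, Pde10a at 0.76 (edgeR adjusted p = 0.00999) and Pde1b at 0.75 (edgeR adjusted p = 0.0366) both passed, and 4 of 10 members were called, against 11.6% of all genes in that fit. The cAMP-specific enzymes gave log2 fold changes of 0.34 for Pde4b, 0.24 for Pde7b, 0.07 for Pde8b, -0.40 for Pde4d and -0.53 for Pde7a, and edgeR adjusted p of 0.284 to 0.859. Pde1c, the remaining calcium-activated enzyme, was at -0.26 with an interval of -1.12 to 0.60. The interval of Pde8b, the fold closest to 0, was -0.37 to 0.52.

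**Figure D2:**
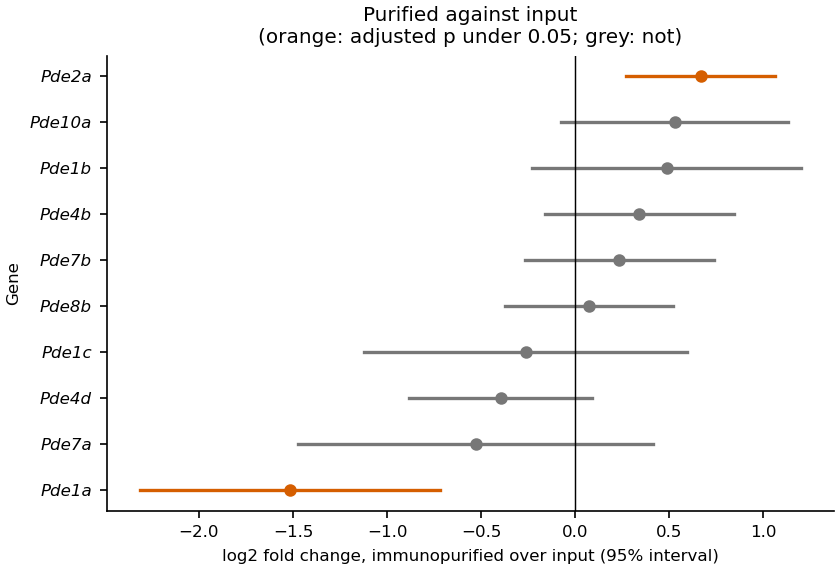
Log2 fold change of each gene in 12 immunopurified over 3 input libraries (circles) with its 95% interval (bars), ordered by size, in orange where edgeR's adjusted p was under 0.05. Pde2a at 0.67 and Pde1a at -1.52 are the orange genes, and the grey intervals all cross 0.

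A share within the family does not depend on how libraries are scaled to each other. Each gene's share of the summed CPM per kilobase of 24 phosphodiesterases was therefore compared between the same 12 and 3 libraries by a two-sided exact permutation test, adjusted over the 10 genes. Pde10a made up 40.2% ± 6.75 (SD, n = 12) after purification and 40.1% ± 3.75 (SD, n = 3) in inputs (exact p = 0.974). Pde1a made up 1.04% ± 0.54 against 3.33% ± 1.54, with exact p = 0.0022, the smallest this design can give, and adjusted p = 0.0220. Pde4d, which hydrolyses cAMP and is a target of rolipram, made up 0.782% ± 0.265 against 1.29% ± 0.0956 (exact p = 0.00659, adjusted p = 0.0330). The call of Pde4d was lost when shares were not divided by length (exact adjusted p = 0.0659), without the saline withdrawal or the nonescalating input (0.110 each) and without the saline input (0.220). That of Pde1a was lost without any 1 of the inputs (0.110 each), where the smallest exact p is 0.0110. The purified libraries of Pde4d ran from 0.375% to 1.36% and the inputs from 1.19% to 1.38%, so the ranges overlapped. Pde2a took 17.7% ± 3.93 against 13.7% ± 3.46 (exact adjusted p = 0.286), and none of the other 6 passed.

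**Figure D3:**
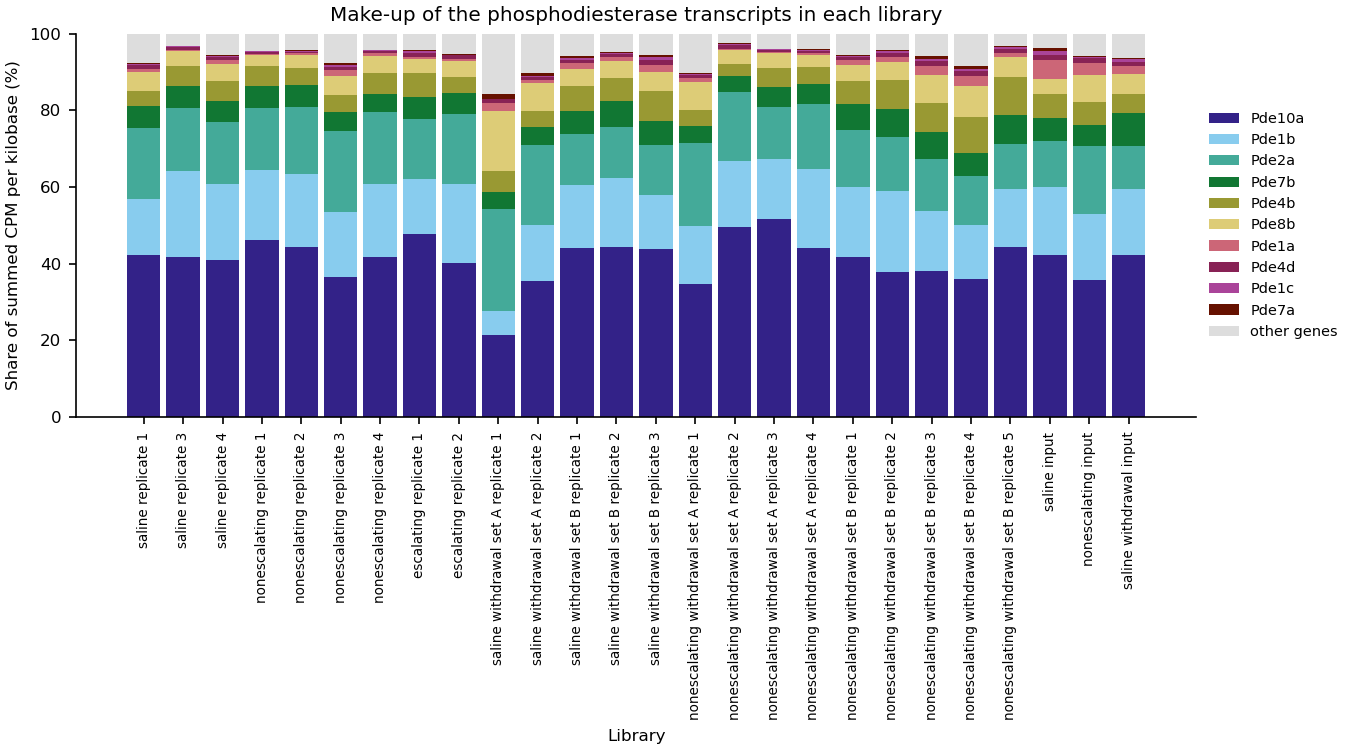
Share of each gene in the summed CPM per kilobase of 24 phosphodiesterases, as 1 stacked bar per library from 0 to 100%, with the other 14 genes in grey. Pde10a takes 21.3% in saline withdrawal set A replicate 1, its lowest share, and 34.8% to 51.6% in the other purified libraries.

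Within the purified libraries Pde10a, Pde1b and Pde7b varied together, and so did other members. Pearson's r of log2 CPM over 23 libraries was 0.94 for Pde10a with Pde1b (Spearman's rho 0.86), 0.93 for Pde10a with Pde7b (rho 0.81) and 0.90 for Pde1b with Pde7b (rho 0.79). Among the 45 pairs of members compared these had adjusted permutation p of 0.000112 for r and 0.000112 to 0.000193 for rho. Without the 2 libraries farthest from the median of the first gene named, r was 0.87, 0.86 and 0.81. Within sets A and B it was 0.95 and 0.87, 0.97 and 0.93, and 0.94 and 0.93 for the same pairs. By rho other pairs were as close: Pde4b with Pde7b at 0.83 (r = 0.88) and Pde1b with Pde2a at 0.85 (r = 0.74). Each of these rho had adjusted permutation p = 0.000112. Within sets A and B r was 0.94 and 0.73 for Pde4b with Pde7b and 0.93 and 0.97 for Pde1b with Pde2a. For Pde10a with Pde2a it was 0.93 and 0.92. Pde2a and Pde7a ran in opposite directions, with r = -0.75 (adjusted permutation p = 0.000394), rho = -0.77 (adjusted permutation p = 0.0003), r = -0.70 without the 2 farthest libraries and -0.72 and -0.61 within sets. All these levels share a library's depth and scaling.

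Windows of 250 bases before a RefSeq start site (GRCm38.p6) are printed for Pde10a, Pde1b and Pde7b, whose pairs had the highest Pearson's r. They lie at chr17:8801495-8801744 (plus strand), chr15:103502784-103503033 (plus) and chr10:20548329-20548578 (minus) and read 5′ to 3′ along the gene, with matches to the GC box GGGCGG on either strand in capitals:
Pde10a: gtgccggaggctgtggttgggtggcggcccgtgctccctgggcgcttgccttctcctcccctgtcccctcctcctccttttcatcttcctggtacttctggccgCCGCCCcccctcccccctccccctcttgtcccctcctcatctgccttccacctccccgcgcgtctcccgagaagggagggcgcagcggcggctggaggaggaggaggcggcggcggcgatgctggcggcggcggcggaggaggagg
Pde1b: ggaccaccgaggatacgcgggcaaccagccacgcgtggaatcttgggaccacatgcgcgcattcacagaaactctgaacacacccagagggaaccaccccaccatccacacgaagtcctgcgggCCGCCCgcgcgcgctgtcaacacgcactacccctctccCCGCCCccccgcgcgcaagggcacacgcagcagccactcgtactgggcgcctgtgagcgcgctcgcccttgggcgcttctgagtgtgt
Pde7b: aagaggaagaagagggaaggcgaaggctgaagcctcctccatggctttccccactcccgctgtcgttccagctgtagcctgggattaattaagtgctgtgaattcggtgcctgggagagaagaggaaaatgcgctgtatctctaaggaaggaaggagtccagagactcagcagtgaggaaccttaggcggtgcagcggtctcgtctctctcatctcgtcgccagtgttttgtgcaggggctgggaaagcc
The Pde10a window holds 1 GC box, that of Pde1b holds 2 and that of Pde7b none, while 32.7% of 32851 windows of this length hold at least 1. Neither the cAMP response element TGACGTCA, found in 1.55% of the windows, nor its core TGACG, which lies inside it and is found in 17.8%, occurs in any of the 3 on either strand. GC content was 72.8% for Pde10a, 67.2% for Pde1b and 55.2% for Pde7b. RefSeq lists further start sites for Pde10a and Pde1b, and the windows before these held no GC box. By the GENCODE coordinates above, the printed windows of Pde10a and Pde7b lie inside the annotated genes. That annotation therefore also has starts upstream of them. Gene counts do not tell which starts were used, and matching letters show no binding.

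The 3 genes also followed the share of reads outside genes, which differs between libraries. Across 23 libraries r with that share was -0.92 for Pde10a (rho -0.87), -0.91 for Pde1b (rho -0.91) and -0.93 for Pde7b (rho -0.90), each with adjusted permutation p = 3.33e-05 over the 10 genes. The raw p of 1e-05 behind each is the smallest that the resamples can give. Without the 2 libraries of highest share, saline withdrawal set A replicate 1 at 70.7% and nonescalating withdrawal set A replicate 1 at 60.7%, r was -0.88, -0.90 and -0.87. Within set A it was -0.94, -0.92 and -0.97 over 15 libraries, and within set B -0.87, -0.93 and -0.92 over 8. Saline withdrawal set A replicate 1 also had the lowest summed level of indirect-pathway neuron markers, 2181 CPM. Its sum of endothelial and mural markers, 7793 CPM, was the highest. The relation was not computed over all genes, so it is not shown to be particular to phosphodiesterases.

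Pde2a (r = -0.72, rho = -0.71) and Pde4b (r = -0.74, rho = -0.69) followed the share in the same direction, each with adjusted permutation p = 0.00016 for r and 0.00048 and 0.00065 for rho. Leaving out the 2 libraries gave -0.76 and -0.54. Within sets A and B r was -0.92 and -0.86 for Pde2a and -0.90 and -0.65 for Pde4b. Pde7a, at low counts, ran the other way with r = 0.67 (adjusted permutation p = 0.00075), rho = 0.73 (adjusted permutation p = 0.000375), 0.71 without the 2 libraries, and 0.78 and 0.53 within sets. The relation of Pde1c, r = -0.57 (adjusted permutation p = 0.00703) with rho = -0.36 (adjusted permutation p = 0.110), rests on those 2 libraries, since r was -0.13 without them.

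Pde8b, a cAMP-specific enzyme, was the steadiest of the 10 across purified libraries, at 160 to 278 CPM with a mean of 215 ± 28.2 (SD, n = 23) and a coefficient of variation of 13.1%. Pde10a ranged from 817 to 7838 CPM, with 40.1%. The relation of Pde8b with reads outside genes was r = 0.11 (adjusted permutation p = 0.606, rho = -0.10 with adjusted p = 0.637), -0.22 without the 2 libraries, and 0.20 and -0.20 within sets. On CPM without TMM scaling it was 0.65 (adjusted permutation p = 0.00144), so its flatness holds on the TMM scale only. For Pde1a (r = 0.35, adjusted permutation p = 0.111, rho 0.42) and Pde4d (r = -0.40, adjusted permutation p = 0.0764, rho -0.29) the test was not passed on that scale.

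**Figure D4:**
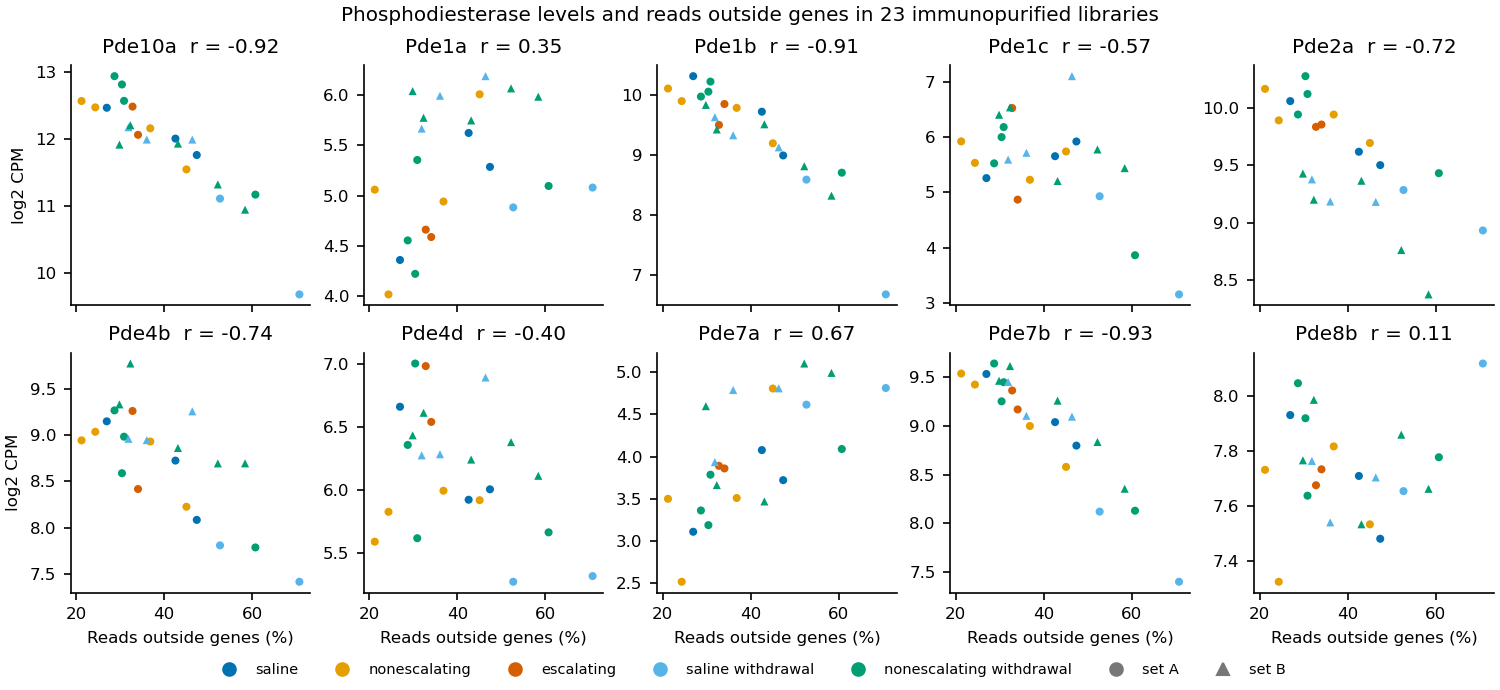
Log2 CPM of each gene (vertical axis, own range per panel) against the percentage of uniquely aligned reads outside genes in 23 immunopurified libraries, coloured by group, with circles for set A and triangles for set B. Pde10a, Pde1b and Pde7b decline along the axis, with r of -0.92, -0.91 and -0.93, and Pde8b spans 160 to 278 CPM with no such decline.

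Cocaine and withdrawal were compared among the purified libraries in 1 fit with library set as a term, to ask whether phosphodiesterase transcripts differ with intake or abstinence. None of the 10 genes was called in any of 6 comparisons between groups or in the interaction of cocaine with withdrawal. The background was the same: edgeR called 0% of 16907 genes in each of the 7, and a small share had an unadjusted p under 0.05. That share was 2.11% in nonescalating against saline, 3.06% in escalating against saline, 3.3% in escalating against nonescalating and 5.21% in nonescalating withdrawal against saline withdrawal. It was 5.23% in saline withdrawal against saline, 4.52% in nonescalating withdrawal against nonescalating and 2.03% in the interaction. Of the members, 1 had such a p in 1 of the 7. DESeq2 called 1 to 12 genes in each and no member. The comparisons share groups, so their values are not independent.

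That member was Pde4d. It was at 126 and 92.7 CPM in the escalating libraries and at 56.5, 47.9, 60.3 and 63.5 in the nonescalating ones. Saline libraries, at 64.0, 101 and 60.4, overlapped both of these groups. The log2 fold change of escalating against nonescalating was 0.94 ± 0.37 (SE), with a 95% interval of 0.17 to 1.71. Its p by edgeR was 0.0190 before adjustment and 1 after it. The fold was 0.70 without escalating replicate 1, with an interval that then includes 0 (edgeR unadjusted p 0.159), and 1.14 without escalating replicate 2.

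Against saline, the log2 fold changes of the 10 genes ran from -0.40 (Pde4d) to 0.19 (Pde2a) in nonescalating libraries and from -0.56 (Pde1a) to 0.54 (Pde4d) in escalating libraries. The interval of Pde4d in the first, -1.09 to 0.30, and of Pde1a in the second, -1.49 to 0.37, include 0. Pde10a was at 5718 and 4268 CPM in escalating libraries, inside the range of the nonescalating group, and its fold of 0.05 had an interval of -1.16 to 1.26. A 2-fold change in either direction lay inside that interval. The interaction of cocaine with withdrawal ran from -0.63 (Pde7a) to 0.68 (Pde4d) on the log2 scale, with edgeR adjusted p = 1 for each member.

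After withdrawal 8 of the 10 genes had a log2 fold change above 0 in nonescalating against saline libraries, with a median of 0.28 against 0.01 for all genes, and none passed (edgeR adjusted p 0.749 to 0.953). Pde1b was at 0.63 ± 0.40, Pde7b at 0.50 ± 0.31, Pde4b at 0.48 ± 0.29 and Pde10a at 0.48 ± 0.41 (SE). The library sets gave different values. In set A Pde10a was at 817 and 2204 CPM in the saline withdrawal libraries and 2297, 7191, 7838 and 6069 in the nonescalating ones, a log2 fold change of 1.95 ± 0.57 (edgeR adjusted p = 0.133). The library at 2204 CPM is saline withdrawal set A replicate 2, counted on the annotation of set B.

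In set B Pde10a was at 4064, 4616 and 4063 CPM against 3896, 3856, 2552, 1965 and 4713, a log2 fold change of -0.34 ± 0.25 (edgeR adjusted p = 0.9998). The folds of Pde10a in sets A and B had opposite signs. The same held for the signs of Pde1b (1.92 and -0.11), Pde7b (1.41 and -0.06) and Pde2a (0.86 and -0.18), with edgeR adjusted p of 0.134 to 0.176 in set A. The difference between sets was not tested. Without saline withdrawal set A replicate 1, the library with the highest share of reads outside genes, the pooled fold of Pde10a was 0.09. In set A reads outside genes were 70.7% and 52.7% in the saline withdrawal libraries and 60.7%, 30.4%, 28.7% and 30.9% in the nonescalating ones. In set B they were 36.0%, 31.9% and 46.4% against 43.1%, 29.8%, 52.2%, 58.4% and 32.3%. Over both sets 8 of 8 indirect-pathway neuron markers had a fold above 0 (median 0.63), at a summed 4367 to 17849 CPM in nonescalating and 2181 to 8224 in saline withdrawal. Of the endothelial and mural markers 0 of 12 did (median -1.03), at 74.8 to 5410 against 1164 to 7793 CPM. No marker of either list was called or at 0 throughout a group, and the part of reads outside genes and of these markers was not tested.

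Saline withdrawal against saline gave 8 of 10 genes below 0, with a median of -0.43 against 0.08 for all genes, and nonescalating withdrawal against nonescalating gave 7 of 10 below 0, with a median of -0.17 against 0.09. None passed in either (edgeR adjusted p 0.782 to 0.865 and 0.926 to 0.990). The nonescalating libraries were all of set A and the nonescalating withdrawal libraries of both sets. Under settings other than leaving out 1 library, 22 of 110 member values changed sign in nonescalating withdrawal against nonescalating. In saline withdrawal against saline 3 of 110 did. Pde2a was at 488 to 665 CPM in the 5 saline withdrawal libraries and at 725 to 1067 in the 3 saline libraries. The saline libraries were all of set A, while the saline withdrawal libraries were of both sets. The saline withdrawal libraries of set A alone also lay below every saline library. The fitted fold of Pde2a with 1 library set term common to all groups was -0.18 ± 0.33 (edgeR adjusted p = 0.865). Whether that term suits each group was not tested. Scaling moved these comparisons as a whole: the median of all genes in saline withdrawal against saline was 0.08 with TMM, 0.22 with RLE factors and 0.19 with library totals. The members' signs there were the same under all 3. In saline withdrawal against saline 0 of 8 indirect-pathway neuron markers had a fold above 0 (median -0.51), at a summed 2181 to 8224 against 8528 to 13466 CPM. Of the endothelial and mural markers 12 of 12 did (median 1.39), at 1164 to 7793 against 240 to 3545 CPM. None of these markers was called or at 0 throughout a group, and their part was not tested.

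**Figure D5:**
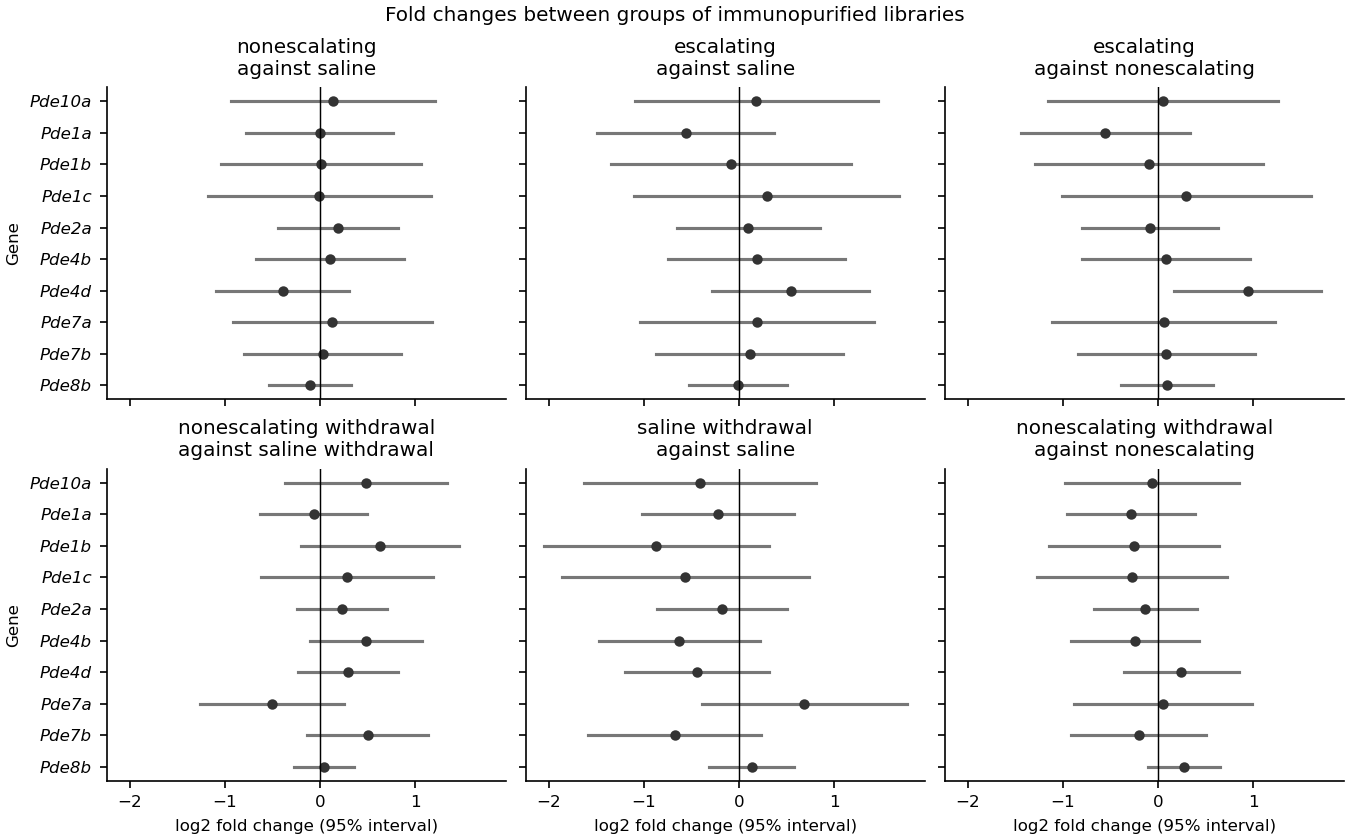
Log2 fold change of each gene (circles) with its 95% interval (bars) in 6 comparisons between groups of immunopurified libraries, with the line at 0. Every interval crosses 0 except that of Pde4d in escalating against nonescalating, 0.17 to 1.71.

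The other genes of cyclic nucleotide signalling were read from lists written with earlier results known. Of the 14 other phosphodiesterases 10 were tested in purified against input RNA, and 1 was higher and 0 lower, against 3.58% and 3.8% of all genes. That gene was Pde5a, the cGMP-specific enzyme of vascular smooth muscle, at 4.64 ± 1.04 on the log2 scale (edgeR adjusted p = 0.0152), from 10, 9 and 2 counts in the inputs. Its counts in the 12 purified libraries were uneven, from 19 to 1266. Pde4c was at 4.46 ± 1.37 (edgeR adjusted p = 0.0578), Pde4a at 0.51 ± 0.24 and Pde3b at -1.61 ± 0.88. Pde5a and Pde4c, with few counts in the inputs, passed the low-count filter through the purified libraries. Only a higher call was therefore open to them. Of the endothelial and mural markers given beside Pde2a, 12 of 12 were above 0 in this comparison and 4 were called higher, and their part was not tested.

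Among cyclases, which make the messengers, 10 of 10 adenylyl cyclases were tested, with Adcy6 higher at 2.74 ± 0.72 and Adcy2 lower at -2.28 ± 0.47. Calls on this and the following lists stand against 3.58% higher and 3.8% lower among all genes tested. Adcy8 was at -3.06 ± 0.91 (edgeR adjusted p = 0.0516). Of 12 genes on the guanylyl cyclase list, which also holds the nitric oxide synthase Nos1, 9 were tested and 3 were higher. Gucy1a3, at 0.75 ± 0.21, and Gucy1b3, at 0.84 ± 0.23, are subunits of the nitric oxide receptor. The last was Npr1, a natriuretic peptide receptor, at 5.42 ± 1.11 from 0, 4 and 0 counts in the inputs. Npr1 too passed the low-count filter through the purified libraries, at 4 to 818 counts, so only a higher call was open to it. Of 13 genes on a list of cyclic nucleotide kinases, sensors and phosphoprotein targets (Ppp1r1b, Arpp19 and Arpp21), 1 was lower, Prkar1b, a regulatory subunit of protein kinase A, at -0.85 ± 0.22. None of the 3 calmodulin genes, whose product activates PDE1, passed, at a median of 0.13.

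The genes whose levels ran most like 3 of the members were taken as those of highest Pearson's r of log2 CPM over the 23 purified libraries, among 10335 genes. For Pde10a they were Cyfip2 (0.99), Atp2b2 (0.98) and Pcsk2 (0.98). Nisch, Ptprs and Abhd8 were closest to Pde2a, each at 0.95. The nearest genes to Pde1a were less like it, with Cep135 at 0.80, Rap2c at 0.79 and Tra2a at 0.77. These values describe libraries that share depth, scaling and the differences in reads outside genes.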

How the data were processed

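Ribosome-bound and input RNA of mouse dorsal striatum was measured by RNA-seq in 26 libraries. The deposited values are raw counts of reads per gene symbol, which the authors made with STAR 2.0.0e on mm10 and HTSeq, per the submitters' processing notes. The annotation release, strand setting and kit stay unknown, not given in the sources used here. Groups, replicate numbers and library numbers come from the titles, and library sets were formed from those numbers. The titles mark most set A libraries as copies of lower library numbers, with no meaning given. Of 56 pairs of libraries of 1 group 0 were identical. The tables use 2 annotations (32531 and 32657 genes), joined by symbol to 31974 genes holding 99.5% to 99.9% of each library's counts. Entries naming no gene stayed out of library sizes.

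Counts were fitted with edgeR 4.0.16 in R 4.3.3 (TMM, filterByExpr, quasi-likelihood F test, Benjamini-Hochberg, threshold 0.05). The fit against input had terms for condition and library set (15 libraries, 10 residual degrees of freedom), and the fit of 23 purified libraries had terms for group and set (17 residual degrees of freedom). Log2 CPM used a prior count of 2. Correlations used 100000 permutations, exact in set B. Exon lengths come from GENCODE. On simulated data, edgeR recovered 4% of 2-fold and 63% of 4-fold changes against input (15074 genes), and 7% and 76% between the withdrawal groups (16305 genes). Alternatives were DESeq2 1.42.0, limma 3.58.1 voom, RLE factors, library totals, other filters, covariates and sets, a replicate block and leaving out each library. Same-number libraries showed no pairing: residuals correlated at a median of -0.184 over 25 same-number pairs and -0.071 over 78 others.

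The members and all gene lists were chosen with earlier results of these data known. Named genes are all 10 members, up to 4 per signalling list by lowest p against input, Drd2, Drd1, and the 3 genes most correlated with Pde10a and each called member (mean of at least 5 CPM). Intervals are 95%.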

Additional observations from a re-analysis of the deposited data

Results flagged for a closer look

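Among 30 sets of libraries tested, each 1 gene in 1 group of 4 to 10 libraries, 2 had a lowest library far from the rest by Dixon's criterion, and chance flags about 1 in 20 sets. Pde4b was at 299.57 CPM in nonescalating replicate 3, and the nearest of the other 3 libraries was at 488. Pde7a was at 15.0578 CPM in saline withdrawal set B replicate 2, and the nearest of the other 4 was at 24.3.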

How the results depend on the processing

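Of 1740 member fold changes recomputed over all comparisons and settings, 1578 kept their direction and side of the threshold, 16 lost the call, 2 gained it, none reversed and 144 uncalled values changed sign. The number of members called in purified against input RNA, 2 as reported, was 1 with no low-count filter, 4 with reads outside genes as a covariate, 1 with all 23 purified libraries and 1 with no condition or set term, and ran from 0 to 2 with each library left out in turn. Pde2a alone was lost in 10 of these settings, and both members without the saline or the nonescalating input and in a replicate block of 3 pairs. The number of genes called there, 1152 as reported, was 2951 with DESeq2 and 1803 with the covariate, and 241 to 1546 with each library left out.

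In the 7 comparisons among purified libraries no member was called in any of 156 settings. The replicate block was used only as an alternative, since libraries share a number and no stated pairing, and it gave 0 members called in each of the 7. For purified against input RNA a replicate block was fitted to replicate 1 and the input of each condition, from the same library set (2 residual degrees of freedom, added after seeing the data). It called 0 members and 202 of 13300 genes, with Pde1a at -1.75 (edgeR adjusted p = 0.138) and Pde2a at 0.56 (edgeR adjusted p = 0.420).

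The relation with reads outside genes passed for Pde1a (0.51) and Pde8b (0.65) on CPM without TMM scaling, and for Pde4d (-0.44) with the share taken of all aligned reads. The family share difference of Pde4d was -0.63 percentage points when not divided by length and no longer passed. Without the saline withdrawal, saline or nonescalating input the differences were -2.94, -1.44 and -2.48 for Pde1a and -0.563, -0.468 and -0.508 for Pde4d, none passing, where the smallest exact p is 0.0110. Pde8b was at -0.775 without the saline input and Pde10a at -2.05 without the nonescalating input. Library totals in place of TMM were added after seeing the data. In simulated data edgeR recovered 4% of 2-fold changes against input and 7% between the withdrawal groups, so an uncalled member there is not shown to be unchanged.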
